A study of Mus musculus with 20 samples.

Results

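The genes described here are 10 ligands and receptors of the CSF1, CX3CL1, CXCL12 and MIF axes, of 31053 genes counted in single cells of the basolateral amygdala (BLA) of the mouse. They were taken by symbol: Csf1, Il34 and Csf1r, Cx3cl1 and Cx3cr1, Cxcl12, Cxcr4 and Ackr3, and Mif and Cd74. All 10 symbols were found in the count tables. The question was which cell types held the transcripts of each ligand and each receptor, and whether chronic corticosterone or ketamine changed their level.

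CSF1 and IL-34 are the ligands of CSF1R, a receptor tyrosine kinase on which microglia depend for survival. CX3CL1 (fractalkine) is a membrane-bound chemokine of neurons that can be shed, and its receptor CX3CR1 is a standard marker of microglia. CXCL12 signals through CXCR4, and ACKR3 binds the same chemokine as an atypical receptor that scavenges it. MIF is a cytokine found in many cell types, and CD74, the invariant chain of class II MHC molecules, serves as its surface receptor and is high in antigen-presenting cells.

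The cells came from male C57BL/6 wild-type mice aged 13 weeks, 1 droplet library (10x Chromium) per mouse. BCD/Sal mice (9901 and 9947) drank 2-hydroxypropyl cyclodextrin (BCD), the vehicle, and received saline. BCD/Ket mice (9946, 9949 and 9986) drank BCD and received ketamine at 10 mg/kg. CORT/Sal mice (9969 and 9970) drank corticosterone at 35 µg/ml for 6 weeks and received saline, CORT/Ket mice (9967, 9968 and 9971) drank corticosterone and received ketamine, and tissue was taken 24 h after the injection. The labels and most of the study's text name BCD as the control drink, and 1 passage of its methods, repeated in the series text, names regular water. Its extraction protocol speaks of prefrontal cortex also for the BLA samples. The prefrontal libraries of the same series were not analysed here.

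The promoters of Cx3cr1 and Cxcl12 are shown because these genes had the highest share of their transcripts in microglia and in endothelial cells. The sequences are the 250 bases before the RefSeq gene start (RefSeq table of promoters) and were found once each in NCBIM37 (mm9), at chr9:119977415-119977664 on the minus strand and chr6:117118303-117118552 on the plus strand. Capitals mark matches, on either strand, to the CCAAT box (CCAAT) or to the GC box (CCGCCC).
Cx3cr1: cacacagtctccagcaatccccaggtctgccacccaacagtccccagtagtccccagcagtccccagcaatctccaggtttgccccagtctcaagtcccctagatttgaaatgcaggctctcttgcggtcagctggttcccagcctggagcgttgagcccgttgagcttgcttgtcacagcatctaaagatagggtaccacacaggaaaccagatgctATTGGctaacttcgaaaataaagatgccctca
Cxcl12: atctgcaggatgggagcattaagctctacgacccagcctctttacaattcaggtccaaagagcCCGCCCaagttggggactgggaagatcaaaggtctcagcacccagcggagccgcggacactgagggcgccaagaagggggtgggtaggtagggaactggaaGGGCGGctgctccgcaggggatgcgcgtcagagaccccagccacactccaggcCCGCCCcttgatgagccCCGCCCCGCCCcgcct
Cx3cr1 held 1 match to the CCAAT box and 0 to the GC box, and Cxcl12 held 5 matches to the GC box and 0 to the CCAAT box. Neither window held the TATA box (TATAAA). Of 32851 mouse promoters of this length, 33.8% held the CCAAT box, 32.7% the GC box and 12.4% the TATA box, so these matches are common and describe the sequence only.

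The 10 libraries held 28722 barcodes. Those with no more than 1 in 8 of their UMIs (unique molecular identifiers, the counted molecules) from mitochondrial genes and at least 200 genes were kept, 8305 in all and 135 to 2397 per library. CORT/Sal mouse 9970 stood apart. Its median mitochondrial share was 3.22% and 97.1% of its barcodes were kept, against medians of 33.2% to 57.9% and 16.8% to 31.0% kept in the other libraries. Of its 2397 kept barcodes, 2347 were in cluster 0, which had 2353 barcodes and stayed unnamed, so this library gave almost no value for named cell classes. Of the kept barcodes, 21 occurred in 2 or more libraries, and mice 9969 and 9970 shared 10, the most of any pair. Rspo2, a marker of BLA projection neurons looked up after the data had been seen, had at most 27 UMIs in any class (cluster 4), and 149 cells carried markers of striatal neurons.

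Clusters were named from marker genes, and each name means cells that resemble the type. Microglia (863 cells) had 14 of 15 microglial markers among their leading genes, and P2ry12 stood at 3145 counts per 1000000 UMIs (CPM) and Tmem119 at 1536 CPM in the pooled cells. Their macrophage marker Mrc1 was at 3.59 CPM, and Lyve1 and the lymphocyte markers Cd3e and Cd79a were at 0. Cluster 4 (800 barcodes, Slc17a7 at 996 CPM) stayed unnamed. The class called ependymal (68 barcodes) had 7 ependymal and 4 choroid plexus markers among its leading genes, so its values may cover both kinds of cell. A class entered a library with at least 10 cells, and levels below are means over those libraries ± SD.

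Cluster 10 passed the marker rule for border-associated macrophages and is called by its number here because it was mixed. Only 36 of its 178 barcodes had 3 or more UMIs of the 10 macrophage markers, whereas 99.9% of microglia had 3 or more UMIs of their own markers. The threshold of 3 was chosen after the data had been seen. In these 36 barcodes Mrc1 was at 2979 CPM and Lyz2, a lysozyme of myeloid cells, at 12024 CPM. In the other 142 barcodes Mrc1 had 0 UMIs, and Snap25 (a synaptic protein), Reln and Ndnf were at 1344, 736 and 892 CPM, so neuronal transcripts were present there. Lyz2 was at 898 CPM in the same 142, from 14 barcodes, and Ptprc, a gene of leukocytes, at 190 CPM, from 10 barcodes. Transcripts of leukocytes were thus present there too. The median depth was 2662 UMIs in the 36 barcodes and 725 UMIs in the 142.

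**Figure D1:**
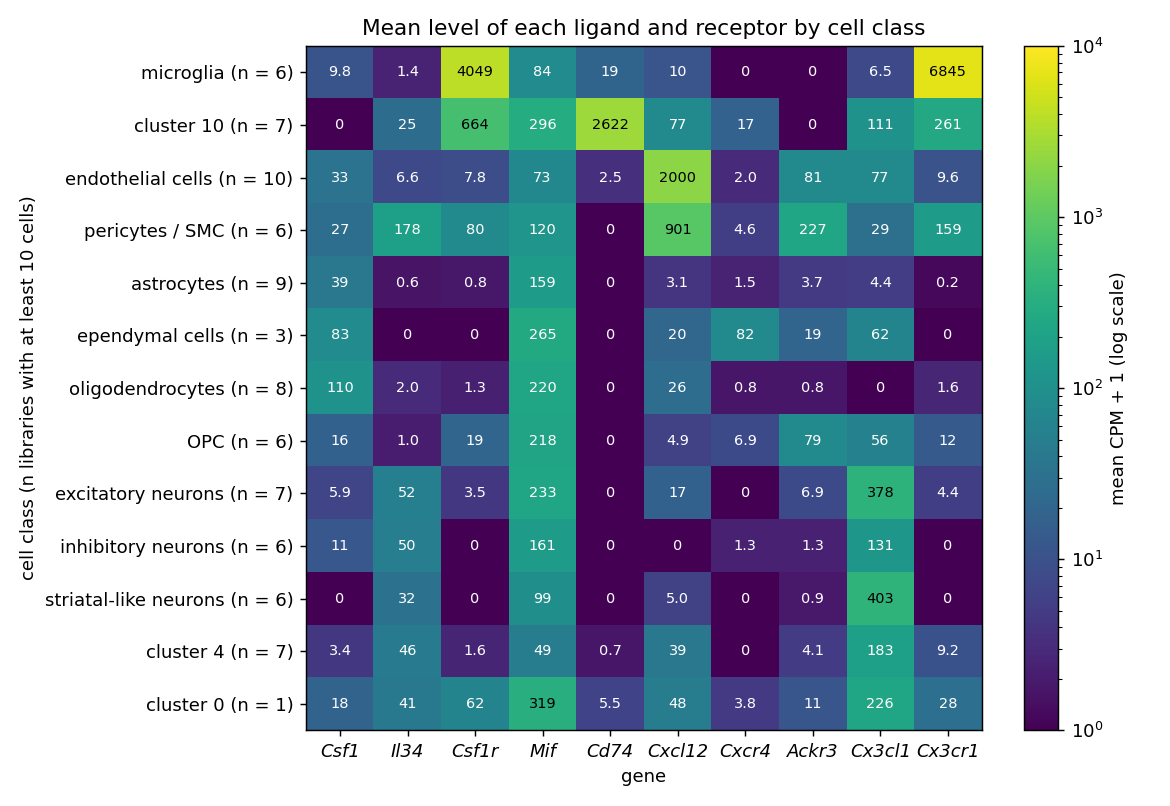
Mean level of each gene (columns) in each cell class (rows, n is the number of libraries with at least 10 cells), in CPM, with the colour on a log scale of CPM + 1. Csf1r and Cx3cr1 peaked in microglia at 4049 and 6845 CPM, Cxcl12 in endothelial cells at 2000 CPM and Cd74 in cluster 10 at 2622 CPM, whereas Mif was seen in every class.

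The CSF1R axis had its receptor in microglia and its ligands elsewhere. Csf1r (chromosome 18, 61265226 to 61291803 on NCBIM37, plus strand) had 92.5% of its 7418 UMIs in microglia. The level there was 3512 CPM in BCD/Sal mouse 9901, 4411 and 3746 CPM in BCD/Ket mice 9949 and 9986, 4425 CPM in CORT/Sal mouse 9969, and 3918 and 4285 CPM in CORT/Ket mice 9968 and 9971. The 6 libraries lay close together, with a mean of 4049 ± 381 CPM. With each cell thinned to 500 UMIs, 83.6% of microglia held Csf1r, and 98.3% did before thinning (median depth 1587 UMIs). Of astrocytes, which should lack it, 0.294% held a Csf1r UMI at a median depth of 1539 UMIs.

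Csf1r in cluster 10 averaged 664 ± 612 CPM (n = 7). It stood at 49.5 and 27.1 CPM in BCD/Sal mouse 9901 and BCD/Ket mouse 9949, at 0 in CORT/Sal mouse 9970, and between 912 and 1364 CPM in the other 4 libraries. Within the cluster, Csf1r was at 2251 CPM in the 36 barcodes with macrophage markers and at 50.2 CPM in the remainder. Microglia were above cluster 10 in 6 of 6 shared libraries (exact two-sided sign-flip permutation test, p = 0.0312, adjusted p = 0.215 over 62 tested pairs of neighbouring classes), and 6 libraries allow no smaller p. Here and below, the pairs and their direction were taken from the same values, so the direction is a description.

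Csf1 (chromosome 3, 107543966 to 107563387, minus strand) was highest in oligodendrocytes, at 109.7 ± 24.9 CPM (n = 8). The lowest library there was BCD/Sal mouse 9901 with 79.1 CPM, the median was 107.9 CPM, and the highest was CORT/Sal mouse 9969 with 143 CPM. Ependymal cells followed with 83.1 ± 32.0 CPM (n = 3), astrocytes with 39.3 ± 26.2 CPM (n = 9) and endothelial cells with 32.8 ± 24.8 CPM (n = 10). Oligodendrocytes and ependymal cells shared only 3 libraries and were not tested, and astrocytes and endothelial cells did not differ beyond their spread (exact sign-flip permutation test, p = 0.859). Microglia held 14 Csf1 UMIs, or 9.78 ± 7.01 CPM (n = 6), so the ligand was low in the cells that carried most of the receptor.

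Il34 (chromosome 8, 113265729 to 113329824, minus strand) was highest in pericytes with smooth muscle cells, at 177.6 ± 47.3 CPM (n = 6). It was measured there at 203 CPM in BCD/Sal mouse 9901, 122 and 215 CPM in BCD/Ket mice 9949 and 9986, 186 CPM in CORT/Sal mouse 9969, and 115 and 223 CPM in CORT/Ket mice 9968 and 9971. Excitatory neurons (52.0 ± 41.4 CPM, n = 7), inhibitory neurons (50.4 ± 33.4 CPM, n = 6) and cluster 4 (45.9 ± 27.0 CPM, n = 7) formed a lower group whose ranges overlapped. The unnamed cluster 0, measured in 1 library, was at 40.7 CPM and held 149 of the 463 Il34 UMIs, the most of any class. The 26 fibroblast-like cells held 16 Il34 UMIs, which pooled to 277 CPM (exact Poisson interval 158 to 449 CPM), and no library had 10 of them. Microglia held 2 UMIs. The 2 CSF1R ligands therefore had different leading cell classes, Csf1 in oligodendrocytes and Il34 in the cells of the vessel wall.

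The CX3CL1 axis had its ligand highest in neurons and its receptor in microglia. Cx3cr1 (chromosome 9, 119957811 to 119977400, minus strand) had 97.1% of its 11544 UMIs in microglia. Levels were 7798 CPM in BCD/Sal mouse 9901, 6707 and 7601 CPM in BCD/Ket mice 9949 and 9986, 6405 CPM in CORT/Sal mouse 9969, and 5550 and 7010 CPM in CORT/Ket mice 9968 and 9971. The mean was 6845 ± 824 CPM (n = 6), and the lowest and the highest library were a CORT/Ket and the BCD/Sal library. Before thinning, 99.5% of microglia and 0.0734% of astrocytes held a Cx3cr1 UMI, and after thinning 95.6% of microglia did. Cluster 10 followed with 261 ± 223 CPM (n = 7), below microglia in 6 of 6 shared libraries (exact sign-flip permutation test, p = 0.0312, adjusted p = 0.215). Within cluster 10, Cx3cr1 was at 865 CPM in the 36 barcodes with macrophage markers and at 27.9 CPM in the other 142.

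Pericytes with smooth muscle cells followed for Cx3cr1, at 159 ± 150 CPM (n = 6), and 7 of their 266 barcodes held 97.4% of the 76 UMIs. These 7 barcodes each held 10 or more UMIs of the microglial markers. In the same cells the summed microglial markers ranged from 86.4 to 2010 CPM across libraries, with P2ry12 detected in 5 of 6. The part of microglial transcripts in the Cx3cr1 and Csf1r values of vascular cells was not tested beyond leaving those barcodes out.

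Cx3cl1 (chromosome 8, 97295909 to 97306323, plus strand) was highest in neurons. Striatal-like neurons had 355 and 519 CPM in BCD/Sal mice 9901 and 9947, 480 and 268 CPM in BCD/Ket mice 9946 and 9986, 375 CPM in CORT/Sal mouse 9969 and 419 CPM in CORT/Ket mouse 9971 (mean 403 ± 90.6 CPM). Excitatory neurons ranged from 240 CPM (BCD/Ket mouse 9946) to 488 CPM (CORT/Sal mouse 9969), with a median of 416 CPM and a mean of 378 ± 100.2 CPM (n = 7). Their ranges overlapped, their paired difference was 2.34 ± 158 CPM (SD, n = 6, exact sign-flip permutation test, p = 1.000), and excitatory neurons led in 3 of 15 alternative settings. Cluster 4 (183 ± 34.3 CPM, n = 7) and inhibitory neurons (131 ± 52.1 CPM, n = 6) were lower. The unnamed cluster 0, measured in 1 library, was at 226 CPM and held 829 of the 2164 Cx3cl1 UMIs, the most of any class. Oligodendrocytes held 0 Cx3cl1 UMIs in 378 cells (at most 2.95 CPM by the limit of 3 counts) and microglia held 9, so the ligand was low in the class that held the receptor.

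The ligand of the CXCL12 axis was highest in vascular cells. Cxcl12 (chromosome 6, 117118553 to 117131385, plus strand) had 83.2% of its 6328 UMIs in endothelial cells, where all 10 libraries could be measured. It stood at 2632 and 1571 CPM in BCD/Sal mice 9901 and 9947, at 2233, 2418 and 2140 CPM in BCD/Ket mice 9946, 9949 and 9986, at 2395 and 1173 CPM in CORT/Sal mice 9969 and 9970, and at 1678, 1712 and 2048 CPM in CORT/Ket mice 9967, 9968 and 9971. The mean was 2000 ± 455 CPM, and the value of mouse 9970 rested on 4 UMIs in 11 cells. After thinning, 52.8% of endothelial cells held Cxcl12, against 73.6% before (median depth 1371 UMIs) and 0.348% of thinned microglia.

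Pericytes with smooth muscle cells were the next class for Cxcl12, at 901 ± 305 CPM (n = 6), lower than endothelial cells in 6 of 6 shared libraries (exact sign-flip permutation test, p = 0.0312, adjusted p = 0.215). The 26 fibroblast-like cells pooled to 1176 CPM (68 UMIs). Cluster 10 was at 76.8 ± 44.8 CPM (n = 7), cluster 4 at 38.5 ± 43.5 CPM (n = 7), excitatory neurons at 16.5 ± 19.8 CPM (n = 7) and microglia at 10.3 ± 16.7 CPM (n = 6). The high levels were in the classes that line or surround vessels.

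The 2 receptors of Cxcl12 were sparse. Cxcr4 (chromosome 1, 130484776 to 130488870, minus strand) had 61 UMIs in the 8305 barcodes and never passed the filter for testing. It led in ependymal cells with 199 CPM in BCD/Sal mouse 9901, 46.3 CPM in CORT/Sal mouse 9969 and none in CORT/Ket mouse 9971, and 34 of the 68 barcodes of that class carried 3 or more of its own marker UMIs. Microglia held 0 Cxcr4 UMIs in 863 cells, which the limit of 3 counts puts at no more than 1.80 CPM.

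Ackr3 (chromosome 1, 92100555 to 92113326, plus strand) was highest in pericytes with smooth muscle cells. It was at 124 CPM in BCD/Sal mouse 9901, 245 and 244 CPM in BCD/Ket mice 9949 and 9986, 299 CPM in CORT/Sal mouse 9969, and 336 and 112 CPM in CORT/Ket mice 9968 and 9971 (mean 227 ± 91.1 CPM). All 6 values were above those of endothelial cells in the same libraries, whose mean over 10 libraries was 80.7 ± 67.7 CPM (exact sign-flip permutation test, p = 0.0312, adjusted p = 0.215). Oligodendrocyte precursor cells held 79.4 ± 23.8 CPM (n = 6) and did not differ from endothelial cells beyond the spread (exact sign-flip permutation test, p = 0.438). Microglia and cluster 10 held 0 Ackr3 UMIs, so neither CXCL12 receptor was detected in microglia.

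The MIF axis had a widespread ligand, and its receptor Cd74 was narrow. Cxcr4 and Ackr3, described above, are also in the list of MIF ligands and receptors used below. Mif (chromosome 10, 75322098 to 75322995, minus strand) had UMIs in all 13 classes that could be measured. The mean was 265 ± 139 CPM in ependymal cells (n = 3), at 139 CPM in BCD/Sal mouse 9901, 241 CPM in CORT/Sal mouse 9969 and 414.5 CPM in CORT/Ket mouse 9971. It was 233 ± 65.7 CPM in excitatory neurons (n = 7), 220 ± 78.6 CPM in oligodendrocytes (n = 8), 218 ± 73.4 CPM in oligodendrocyte precursor cells (n = 6) and 159 ± 53.8 CPM in astrocytes (n = 9). These 5 classes overlapped. In excitatory neurons Mif was at 231 and 282 CPM in BCD/Sal mice 9901 and 9947, 190 and 118 CPM in BCD/Ket mice 9946 and 9986, 324 CPM in CORT/Sal mouse 9969, and 246 and 243 CPM in CORT/Ket mice 9967 and 9971. Microglia, at 83.5 ± 25.1 CPM (n = 6), endothelial cells, at 73.5 ± 45.3 CPM (n = 10), and cluster 4, at 48.7 ± 28.7 CPM (n = 7), were the lowest. Astrocytes exceeded pericytes with smooth muscle cells in 6 of 6 shared libraries (exact sign-flip permutation test, p = 0.0312, adjusted p = 0.215).

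The top place for Mif was not stable. Cluster 0, from 1 library, stood at 319 CPM and cluster 10 at 296 ± 133 CPM (n = 7), but the 36 barcodes of cluster 10 with macrophage markers held only 5 Mif UMIs (49.2 CPM), and its other 142 barcodes held 85 (474 CPM). Of the Mif UMIs of cluster 10, 85 of 90 were thus in barcodes below the threshold for macrophage markers. Ependymal or choroid plexus cells led in 5 of 16 alternative settings.

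**Figure D2:**
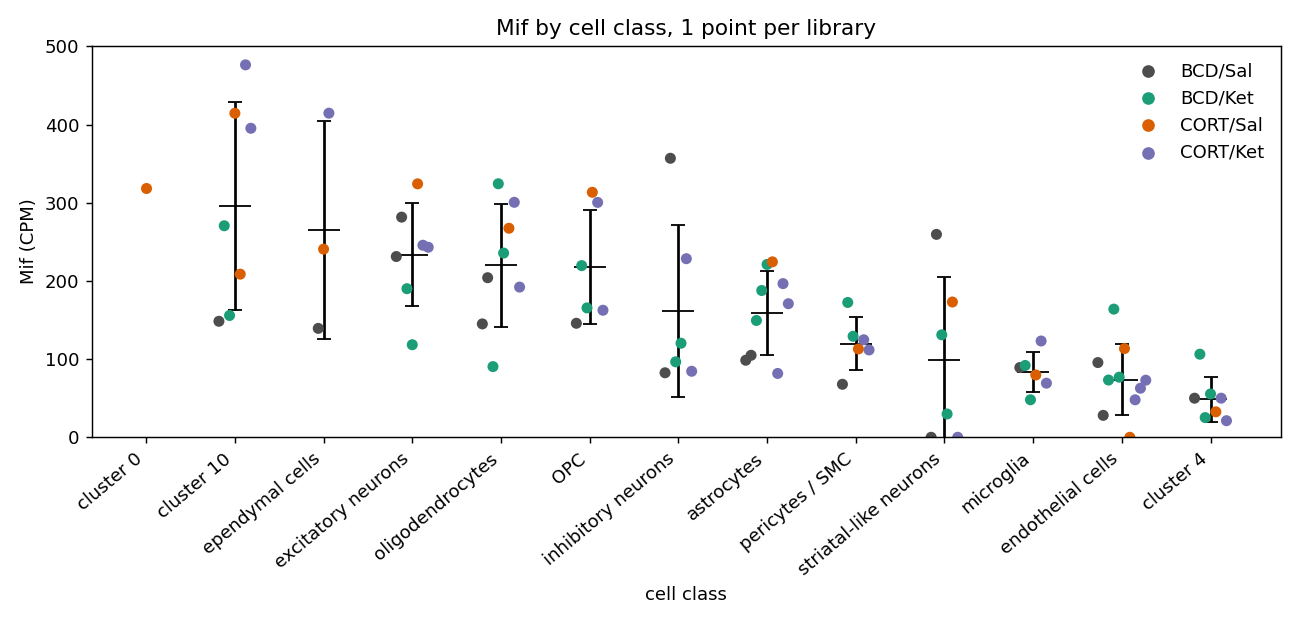
Mif in CPM (vertical axis) by cell class (horizontal axis), 1 point per library with at least 10 cells, coloured by treatment group, with the mean and SD as black bars. The points of excitatory neurons, oligodendrocytes and their precursors overlapped at means of 233, 220 and 218 CPM, and microglia lay lower at 83.5 CPM.

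Cd74 (chromosome 18, 60963502 to 60972300, plus strand) had 92.6% of its 941 UMIs in cluster 10. Its level there was 2473 CPM in BCD/Sal mouse 9901, 271 and 662 CPM in BCD/Ket mice 9949 and 9986, 4393 and 0 CPM in CORT/Sal mice 9969 and 9970, and 8401 and 2158 CPM in CORT/Ket mice 9968 and 9971. The SD exceeded the mean (2622 ± 2972 CPM, n = 7), and 21 of 178 barcodes held all 871 UMIs and 3 barcodes held 66.4% of them, 2 from CORT/Ket mouse 9968 and 1 from CORT/Sal mouse 9969. Cd74 was at 5682 CPM in the 36 barcodes with macrophage markers and at 1634 CPM in the others, where 221 of the 293 UMIs were in 1 barcode of CORT/Sal mouse 9969. H2-Aa, H2-Ab1 and H2-Eb1, the class II MHC chains that CD74 escorts, stood at 1907, 2084 and 2271 CPM in the 36 barcodes.

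Microglia held 33 Cd74 UMIs, or 18.5 ± 13.0 CPM (n = 6), and were below cluster 10 in 6 of 6 shared libraries (exact sign-flip permutation test, p = 0.0312, adjusted p = 0.215). H2-Aa and H2-Eb1 had 0 UMIs in the 863 microglia, and H2-Ab1 had 13. Astrocytes, oligodendrocytes, pericytes and all named neurons held 0 Cd74 UMIs.

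**Figure D3:**
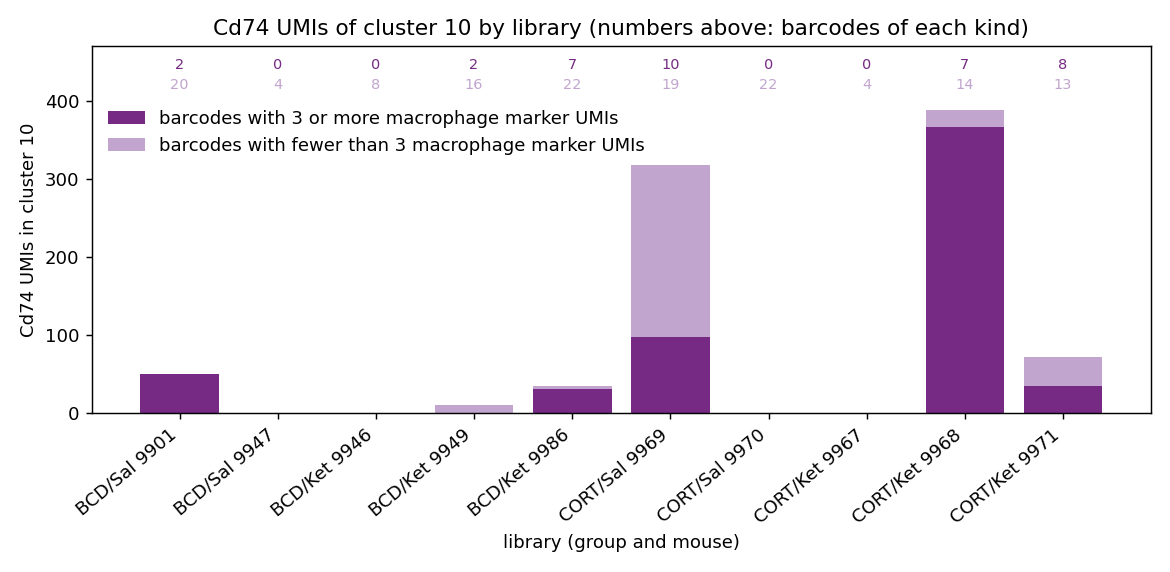
Cd74 UMIs in cluster 10 (vertical axis) by library (horizontal axis), split by whether a barcode held 3 or more UMIs of the macrophage markers; the numbers above the bars count the barcodes of each kind. CORT/Ket mouse 9968 (388 UMIs) and CORT/Sal mouse 9969 (318 UMIs) held most of the 871 UMIs, and 4 libraries had 0 barcodes with macrophage markers.

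Over all 10 genes, 110 pairs of neighbouring classes could be ordered by mean level, and 62 of them shared at least 6 libraries. None passed an adjusted p of 0.05, and 9 were at the unadjusted p of 0.0312. The pairs were neighbours in the order of the same values, so these tests give no separate support for that order. With 6 shared libraries no smaller p can be reached, so the order rests on the levels and their spread given above.

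The effect of treatment was tested with edgeR's quasi-likelihood test on counts summed per mouse and class, in 42 fits of a class and a contrast. Cxcr4 could not be tested in any. The other 9 genes gave 138 tests, of which 0 passed an adjusted p of 0.05 and 3 (2.17%) had an unadjusted p under 0.05, against 3.41% of all 190397 tests. DESeq2 also called 0. The smallest adjusted p of the 10 genes was 0.531 (edgeR). The share of all genes called was 0.109% for CORT/Sal against BCD/Sal, 0.0% for CORT/Ket against CORT/Sal, 0.00735% for BCD/Ket against BCD/Sal, 0.0728% for CORT/Ket against BCD/Ket, 0.0% for the difference of the ketamine effects, 0.0857% for corticosterone against BCD over both injections and 0.0125% for ketamine against saline over both drinks. With calls this rare among all genes, a count of 0 among 10 was near the background.

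Microglia could be compared only between CORT/Ket and BCD/Ket and in the additive fit, because BCD/Sal and CORT/Sal each had 1 library with 10 microglia. The log2 fold change of Csf1r for corticosterone against BCD was 0.14 ± 0.32 (SE, n = 6 libraries, edgeR adjusted p = 0.989), and for ketamine against saline 0.09 ± 0.34. Its sign changed without BCD/Sal mouse 9901 (-0.0407 and -0.17) and, for single contrasts, without CORT/Sal mouse 9969 or BCD/Ket mouse 9949. Cx3cr1 was at -0.19 ± 0.33 for corticosterone (edgeR adjusted p = 0.989) and at -0.04 ± 0.35 for ketamine. Both genes overlapped between CORT/Ket and BCD/Ket, with log2 differences of -0.04 ± 0.38 and -0.23 ± 0.39. Mif in microglia was at 89.2 CPM in BCD/Sal mouse 9901, 91.8 and 48.0 CPM in BCD/Ket mice 9949 and 9986, 79.7 CPM in CORT/Sal mouse 9969, and 123 and 69.2 CPM in CORT/Ket mice 9968 and 9971, with 0.27 ± 0.34 for corticosterone.

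Endothelial cells allowed all contrasts, but CORT/Sal had a second library there only through mouse 9970. That library gave 11 endothelial cells with 3411 UMIs in all, and 0 UMIs of Csf1, Ackr3 and Mif. Contrasts with CORT/Sal thus rested mainly on mouse 9969. Cxcl12 was at 1678, 1712 and 2048 CPM in the 3 CORT/Ket libraries and at 2140, 2233 and 2418 CPM in the 3 BCD/Ket libraries. The log2 fold change of -0.40 ± 0.55 was within its error (edgeR adjusted p = 1.000, 0.0728% of all genes called). For Cxcl12, corticosterone against BCD gave -0.40 ± 0.40 (n = 10). Mif was at 48.0, 62.7 and 73.0 CPM in CORT/Ket, on 1, 21 and 21 UMIs, and at 73.2, 164 and 76.9 CPM in BCD/Ket, on 8, 93 and 26 UMIs, with a log2 fold change of -0.81 ± 0.40 (edgeR unadjusted p = 0.0438, adjusted p = 1.000). The nearest values of CORT/Ket and BCD/Ket were 73.0 and 73.2 CPM, and leaving out single libraries gave changes from -1.03 to -0.15. Csf1, Ackr3 and Cx3cl1 in these cells had log2 fold changes between -0.31 and 0.37 for corticosterone and between 0.27 and 0.61 for ketamine, none past the threshold.

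**Figure D4:**
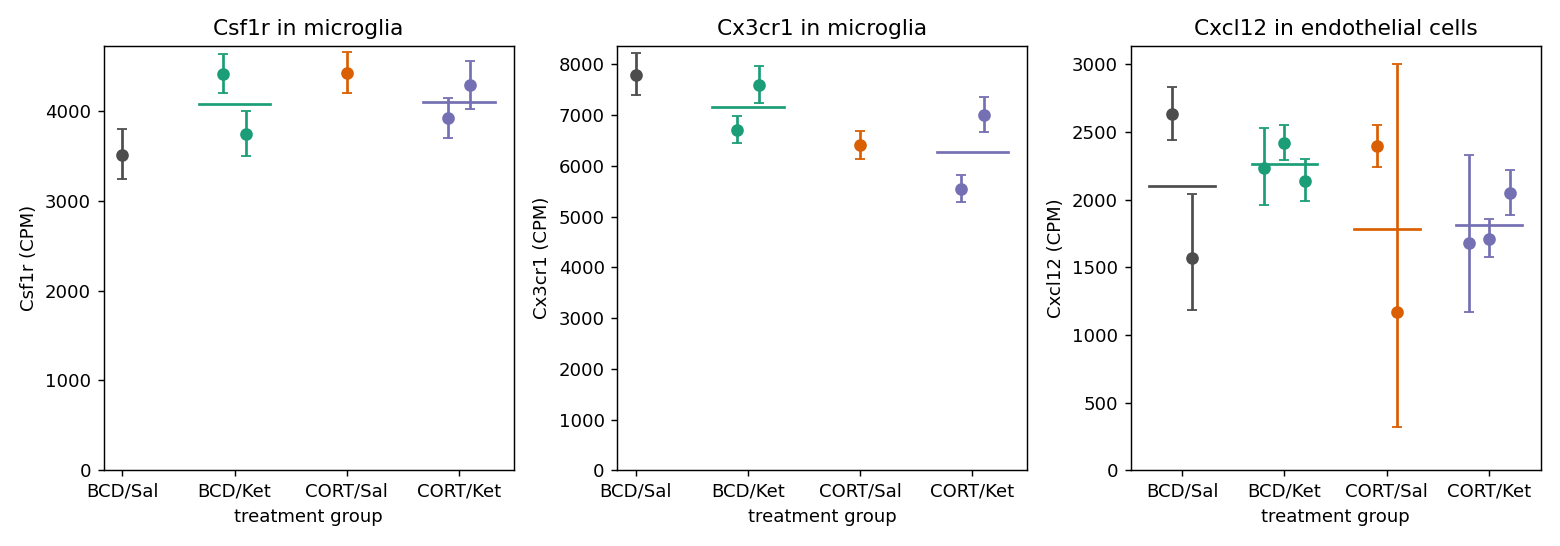
Csf1r and Cx3cr1 in microglia and Cxcl12 in endothelial cells, in CPM (vertical axes, from 0) by treatment group, 1 point per library with its exact 95% Poisson interval of counting error and the group mean as a line where a group has 2 or more libraries. Csf1r stayed between 3512 and 4425 CPM in all groups, and the interval of CORT/Sal mouse 9970 for Cxcl12 is wide because it rests on 4 UMIs.

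In neurons and cluster 4, Il34 in excitatory neurons was at 33.6 and 26.2 CPM in BCD/Sal and at 30.01 and 142 CPM in BCD/Ket, a log2 fold change of 1.42 ± 0.67 (edgeR unadjusted p = 0.0387, adjusted p = 0.999). BCD/Ket mouse 9986 held 12 UMIs in 10 cells, and the change was -0.0710 without it. Cxcl12 in cluster 4 had a log2 fold change of -1.88 ± 0.86 for ketamine against saline (edgeR unadjusted p = 0.0294, adjusted p = 0.999). It had 16 UMIs in CORT/Sal mouse 9969, 20 UMIs in BCD/Sal mouse 9901 and 0 to 4 UMIs in each ketamine library. These counts are not levels, because cluster 4 held 620051 UMIs in BCD/Sal mouse 9901 and 37644 in BCD/Ket mouse 9946. The highest level was the 130 CPM of mouse 9969, and the median over the 7 libraries was 26.6 CPM. Cx3cl1 in excitatory neurons had 0.24 ± 0.32 for corticosterone and -0.36 ± 0.31 for ketamine, and in striatal-like neurons -0.07 ± 0.58 and -0.20 ± 0.52. Mif in excitatory neurons was at -0.61 ± 0.31 for ketamine, which had the smallest adjusted p of all (edgeR adjusted p = 0.531).

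In the vessel wall and the glia the changes were within or near their errors. In pericytes with smooth muscle cells corticosterone against BCD gave -0.04 ± 0.37 for Il34, -0.02 ± 0.31 for Cxcl12 and 0.30 ± 0.34 for Ackr3 (n = 6, edgeR adjusted p = 0.997 each). Csf1 in oligodendrocytes was at 0.21 ± 0.38 (n = 8), and Mif there was at 0.32 ± 0.31. Some changes exceeded their errors. Mif in astrocytes had 1.06 ± 0.72 for BCD/Ket against BCD/Sal. Csf1r in pericytes with smooth muscle cells had 1.18 ± 0.81 for CORT/Ket against BCD/Ket. Cx3cl1 in oligodendrocyte precursor cells had 1.51 ± 0.82 for ketamine against saline on 39 UMIs (edgeR unadjusted p = 0.0664, adjusted p = 1.000).

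In cluster 10 the differences were larger and so were their errors. Cd74 had a log2 fold change of 3.63 ± 1.80 for CORT/Ket against BCD/Ket (edgeR unadjusted p = 0.0689, adjusted p = 0.999) and 2.08 ± 1.31 for corticosterone against BCD (adjusted p = 0.740), Csf1r had 1.72 ± 1.09, Cx3cr1 1.22 ± 0.79 and Mif 1.19 ± 0.56 in the latter. The share of barcodes with macrophage markers also differed between libraries. Among libraries with at least 10 barcodes, it was higher in every CORT than in every BCD library, except in CORT/Sal mouse 9970. That library gave almost no value for named cell classes. The share was 2 of 22 in BCD/Sal mouse 9901, and 2 of 18 and 7 of 29 in BCD/Ket mice 9949 and 9986. It was 10 of 29 and 0 of 22 in CORT/Sal mice 9969 and 9970. CORT/Ket mice 9968 and 9971 had 7 of 21 and 8 of 21. In libraries with fewer than 10 barcodes, the share was 0 of 4 in BCD/Sal mouse 9947. There it was also 0 of 8 in BCD/Ket mouse 9946 and 0 of 4 in CORT/Ket mouse 9967, so CORT libraries with a share of 0 included mouse 9967. The shares were not tested between groups, nor was their part in the differences.

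**Figure D5:**
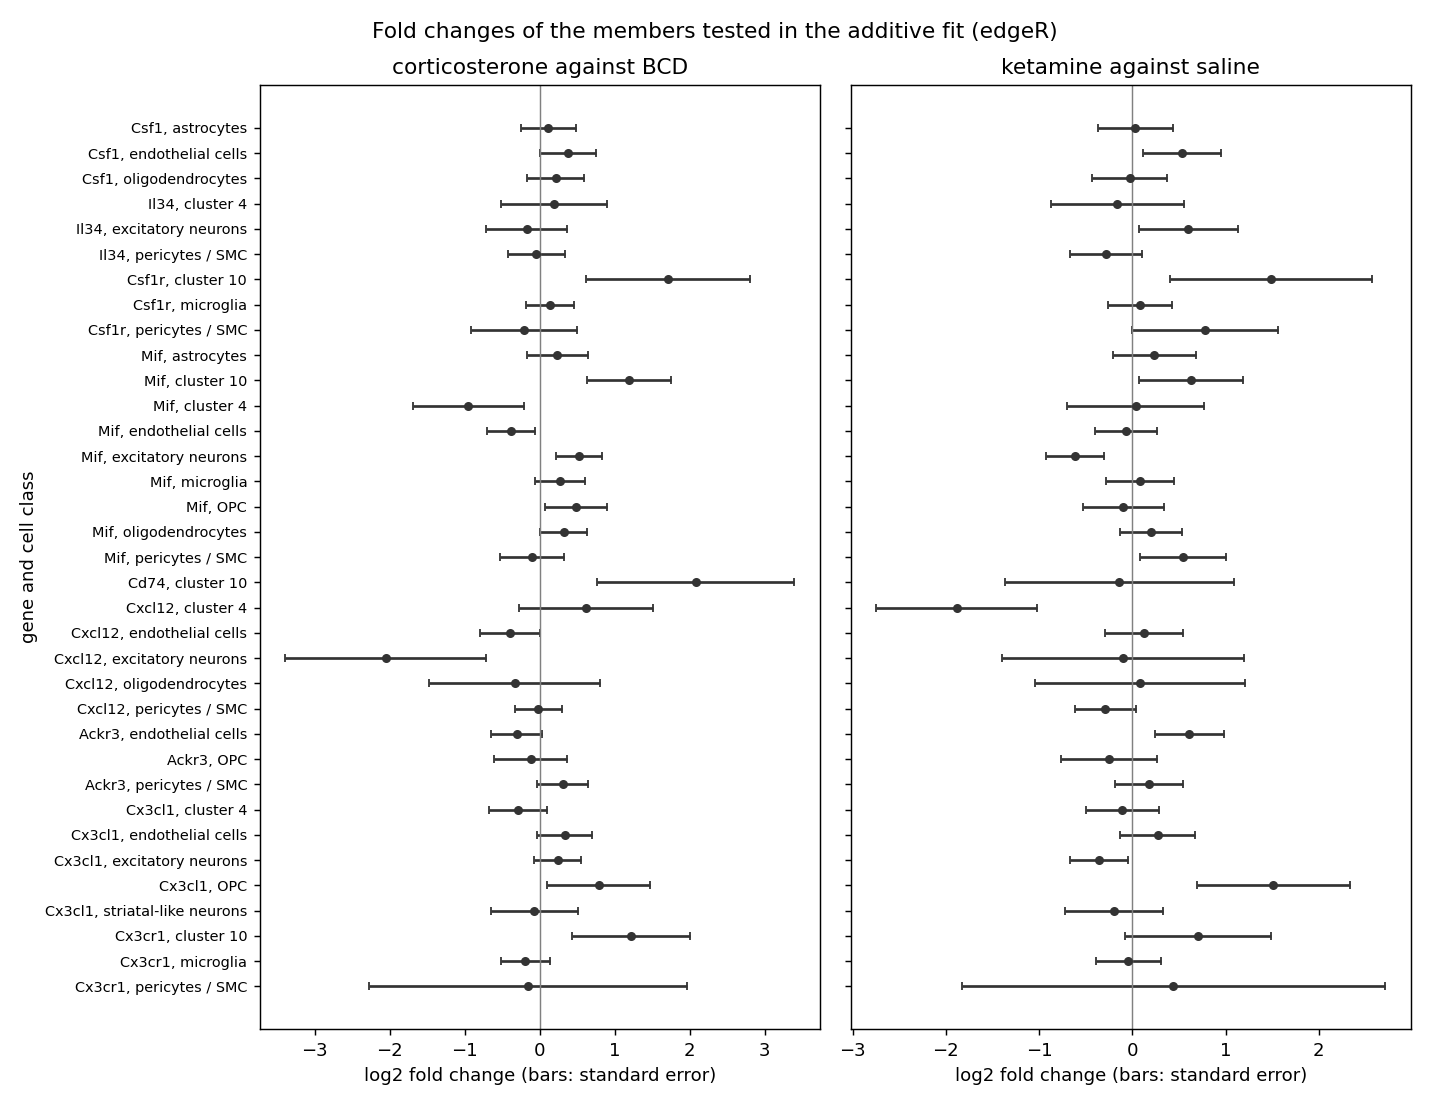
Log2 fold changes (horizontal axes) with standard errors of each gene and cell class tested in the additive fit, for corticosterone against BCD (left) and ketamine against saline (right). The values furthest from 0 for corticosterone were Cd74 in cluster 10 at 2.08 and Cxcl12 in excitatory neurons at -2.06, neither past the threshold.

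The wider pathways were read from lists of genes. Lists of CSF ligands and receptors (6 of 9 genes tested), CSF1R signalling and myeloid regulators (12 of 12), MIF ligands and receptors (5 of 7), class II MHC partners of CD74 (7 of 8), CXC chemokines and receptors (4 of 16), the CX3CL1 axis with its sheddases (4 of 4), CC chemokines and receptors (8 of 18), chemokine receptor signal transducers (12 of 12), dissociation and early response (12 of 12) and inflammation (8 of 11) had 0 genes that rose and 0 that fell in any class or contrast (edgeR, adjusted p of 0.05). Their tests at an unadjusted p under 0.05 numbered 2 of 58, 2 of 88, 3 of 70, 7 of 42, 1 of 44, 3 of 82, 5 of 51, 5 of 251, 14 of 215 and 9 of 85, in that order, beside 3.41% of the tests of all genes. The largest shares were those of the class II MHC list (7 of 42) and the inflammation list (9 of 85).

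In microglia, Tyrobp, the adaptor of TREM2, had a log2 fold change of 0.32 ± 0.32 for corticosterone against BCD, Spi1, the myeloid transcription factor PU.1, -0.05 ± 0.27, and Adam10 and Adam17, the sheddases of CX3CL1, 0.24 ± 0.27 and 0.08 ± 0.30. The median over the class II MHC list for corticosterone was 1.31 against medians of -0.07 to 0.05 for all genes of a class, over 12 tests, of which 6 were in cluster 10. H2-Aa was there at 1.84 ± 1.04, H2-Ab1 at 2.03 ± 1.16 and H2-Eb1 at 1.92 ± 1.14 (edgeR adjusted p = 0.740 each). They were found in 8, 9 and 9 of the 36 barcodes with macrophage markers and in 4, 4 and 5 of the other 142. They followed Cd74 closely (Pearson r of 0.97 to 0.99), so their changes and the list median are not separate from that of Cd74 in few barcodes. In microglia H2-DMa, a peptide loader of class II molecules, was at 0.95 ± 0.30 (edgeR unadjusted p = 0.00231, adjusted p = 0.723). Of the MIF list, Ddt, the homologue of MIF, had 0.82 ± 0.36 in astrocytes (edgeR unadjusted p = 0.0255, adjusted p = 1.000).

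Of the 11 lists, the glucocorticoid response list alone had calls, 0 that rose and 3 that fell of 199 tests, with 34 at an unadjusted p under 0.05. The 3 calls were of Tsc22d3 and Per1 in endothelial cells, and those of Tsc22d3 came from contrasts that share libraries, so they are not separate results. Like the others, this list was chosen with earlier results of these data known. Over all genes 90 of 190397 tests were called and 3.41% had an unadjusted p under 0.05, and the contrasts of the 3 calls had 0.0857% (corticosterone against BCD) and 0.0728% (CORT/Ket against BCD/Ket) of all genes called. Tsc22d3, a gene that glucocorticoids induce, fell by 1.93 on the log2 scale in endothelial cells for corticosterone against BCD (SE 0.34, edgeR adjusted p = 1.82e-05) and fell by 1.98 for CORT/Ket against BCD/Ket (edgeR adjusted p = 0.00746). Per1, a clock gene that glucocorticoids also induce, fell by 1.89 (SE 0.47, edgeR adjusted p = 0.0339) for corticosterone. In microglia Tsc22d3 was at -0.07 ± 0.48 and Fkbp5, a co-chaperone of the glucocorticoid receptor, at -1.06 ± 0.34 (edgeR adjusted p = 0.723).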

How the data were processed

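The deposited matrices hold unnormalised UMI counts, which the authors made with Cell Ranger (3.0.2 by the file headers); the submitters' processing notes name mm9 and Seurat 3.1.1. The build of the annotation counted on is not given in the sources used here, and coordinates are from GENCODE M1 by Ensembl identifier. The 10 members and all lists were chosen with earlier results of these data known. All members and list genes could be named, and the 3 genes most like each member by Pearson correlation, of which 1 is not reported here.

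Barcodes were clustered with scanpy 1.11.5 (2000 variable genes without members and pathway genes, 30 principal components, 20 neighbours, Leiden 0.8), with no doublets removed. A cluster was named from 3 or more markers among its 50 leading genes. Counts were summed per library and class (at least 10 cells) and tested with edgeR 4.0.16 (TMM, filterByExpr, quasi-likelihood, Benjamini-Hochberg over the genes of a class, threshold 0.05), at least 2 libraries per arm. The additive fit had corticosterone and ketamine as terms. Neighbouring classes were compared by exact sign-flip permutation tests paired by library. Alternatives included DESeq2 1.42.0, 3 were added after the data had been seen, and the code was tested on simulated counts. Depth was 811628 to 7281768 UMIs per library. Poisson intervals and limits of 3 counts cover counting error only.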

Additional observations from a re-analysis of the deposited data

Results flagged for a closer look

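Barcodes above the mitochondrial limit or below the minimum of genes, 20417 in all, were left out of every comparison, and they held UMIs of all 10 genes, above the limit that a count of 0 allows. These were 289 UMIs of Csf1, 259 of Il34, 1178 of Csf1r, 4349 of Mif, 87 of Cd74, 749 of Cxcl12, 19 of Cxcr4, 111 of Ackr3, 2143 of Cx3cl1 and 1272 of Cx3cr1. Per 1000000 non-mitochondrial UMIs, Mif was at 278 in the left-out barcodes and 207 in the kept ones, and Cx3cl1 at 137 and 135. Cx3cr1 was at 81.2 and 723, Csf1r at 75.2 and 464, and Cxcl12 at 47.8 and 396. Pooled over libraries, Mif and Cx3cl1 were thus as high or higher in the left-out barcodes, and the 3 genes of microglia and endothelial cells were lower there. Without CORT/Sal mouse 9970, Cx3cl1 was at 137 and 107. Single libraries went both ways. Cx3cl1 was at 145 and 211 in CORT/Ket mouse 9967 and at 114 and 36.2 in CORT/Ket mouse 9968. Mif was at 228 and 293 in BCD/Sal mouse 9947 and at 355 and 189 in CORT/Ket mouse 9968. The cell types of these barcodes were not determined.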

How the results depend on the processing

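Counts of members past the threshold stayed at 0 in 163 recomputations and changed in 8. With no filter on low counts, 2 members were called for CORT/Ket against BCD/Ket, Csf1r (log2 fold change 4.38, edgeR adjusted p = 0.00231) and Cx3cr1 (3.72, adjusted p = 0.00568) in endothelial cells. A single endothelial barcode of CORT/Ket mouse 9968, with 18072 UMIs and 138 UMIs of microglial markers, held 17 of the 25 Csf1r UMIs and 19 of the 31 Cx3cr1 UMIs. Without endothelial and pericyte barcodes that held 10 or more microglial marker UMIs, a setting chosen after seeing the data, 0 were called with or without the filter. With at most 5% mitochondrial UMIs, Csf1r in endothelial cells was called for corticosterone against BCD (1 member, 3.02) and for ketamine against saline (1 member, 5.88). Leaving out each library in turn gave 0 to 2 members for CORT/Ket against BCD/Ket (2 without BCD/Sal mouse 9901 or 9947, 1 without BCD/Ket mouse 9986, the last with a lone BCD/Ket library assumed to vary like the others) and 0 to 2 for corticosterone against BCD (2 without BCD/Sal mouse 9901 or CORT/Sal mouse 9969). Of the recomputed log2 fold changes, 300 kept their direction and their side of the threshold and 6 reversed, all on leaving out single libraries: the ranges were -0.0710 to 2.16 for Il34 in excitatory neurons (BCD/Ket against BCD/Sal), and for Csf1r in microglia -0.22 to 0.19 (CORT/Ket against BCD/Ket), -0.0407 to 0.29 (corticosterone against BCD) and -0.17 to 0.33 (ketamine against saline).

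Of the recomputed mean levels, 157 moved by less than 1 SD and 12 by more. Mif and Cd74 in the macrophage class went to 68.7 and 5896 CPM at Leiden resolution 0.4 and with members kept in the clustering, and to 70.9 and 5769 CPM at 25% mitochondrial UMIs. Neighbouring classes past the threshold stayed at 0 in all 18 alternatives. No paired analysis was possible because each mouse received 1 treatment and no 2 treatment groups of the BLA share a mouse. Depth limits Cxcr4, with 61 UMIs, and CORT/Sal mouse 9970 in named classes.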

Other observations

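Across 74 sums of a library and a named class, in 11 classes that share libraries and differ in depth, the genes most like Csf1r in log2(CPM + 10) were C1qb, C1qc and Trem2 (Pearson r = 0.98 each), and those most like Cx3cr1 were Ctss, Trem2 and Selplg (0.97, 0.96 and 0.96). Cd74 was most like H2-Ab1, H2-Aa and H2-Eb1 (0.99, 0.97 and 0.97), and Cxcl12 was most like Cldn5, Ptprb and Abcb1a (0.94, 0.94 and 0.93). Ackr3 went with Prss23, Lama4 and Cthrc1 (0.92, 0.88 and 0.86), and Cx3cl1 with Syt7 and Atp2b1 (0.82 each). Likeness was weaker for Csf1 (Car2, Cryab and Car14, 0.74 to 0.75), Il34 (Npy1r, Trpc4 and Gucy1b1, 0.71 to 0.75) and Mif (Cyc1, Cox4i1 and Cox6a1, 0.73 to 0.75). Cxcr4 had fewer than 50 UMIs in these sums, below the minimum asked of the genes compared with it. Its most like genes were Psmc3ip, Lgals3 and Dnah11 (0.70, 0.67 and 0.64).

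Cluster 0, nearly all from CORT/Sal mouse 9970, held UMIs of microglial markers in 1653 of its 2353 barcodes, and C1qa was at 190 CPM. The same barcodes held Csf1r at 61.9 CPM and Cx3cr1 at 27.8 CPM beside Slc17a7 at 1037 CPM, and no microglia were named in this library.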
